A study of Saccharomyces cerevisiae BY4741 with 6 samples.

Results

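Nascent transcription in budding yeast lacking SPP1 was compared with that of the wild type at 15 min after transfer from glucose to galactose medium. The comparison rests on 2 of the 6 libraries of the series, 1 per strain, and was made over the 5050 of 5219 genes whose mean count over those 2 libraries was 10 or more. Transcription was measured by NET-seq, which sequences nascent RNA pulled down together with RNA polymerase II, so that a gene's count reflects engaged polymerase rather than accumulated mRNA. Both strains were BY4741, an a-mating-type laboratory strain, and both carried RPB3-3xFLAG, a tag on a polymerase subunit through which the complexes were purified. The wild type had the genotype RPB3-3xFLAG-His3MX6, and the deletion strain RPB3-3xFLAG-HisMX6, spp1::KanMX6. Both were grown to log phase in rich glucose medium, spun down, resuspended in prewarmed rich galactose medium and harvested by filtration at 15 min. The remaining libraries are the same strains in glucose, which are not described as having been spun down, and at 60 min in galactose. The labels name no independent clones or cultures.

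Spp1 is the COMPASS subunit with a PHD finger, a fold that binds histone tails, and Set1 is the catalytic subunit of COMPASS that methylates lysine 4 of histone H3. Loss of Spp1 is known mainly to lower trimethylation at the starts of transcribed genes. A shift from glucose to galactose relieves glucose repression and, through the activator Gal4, induces the genes of galactose use, while genes for ribosome assembly are turned down early in such a shift. Ergosterol, the main sterol of the yeast membrane, is made from acetyl-CoA through mevalonate, squalene and lanosterol, and its late, oxygen-requiring steps are under the control of the sterol-responsive activators Upc2 and Ecm22.

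The wild-type library at 15 min held 1270361 counts and the deletion library 1681514, with median counts per gene of 134 and 172. One count equalled 0.82 CPM (counts scaled to a fixed library total) in the wild type and 0.633 CPM in the deletion, and after scaling between libraries an equal level corresponded to 1.29 times as many counts in the deletion. With 1 library per strain there is no replicate check and no p-value for the 15 min difference itself. Each difference is therefore given as log2 CPM in the deletion minus that in the wild type, with a prior count of 2 added, and with an exact 95% binomial counting interval that covers counting error only. Of the kept genes, 24.7% had a counting interval clear of 0. Fewer cells transcribing a gene and less transcription per cell cannot be told apart in such bulk samples. On the part of chromosome XI that runs from MTC2 to the right telomere, W-strand genes stood lower than C-strand genes by a median of 1.39 on the log2 CPM scale in the wild type at 15 min over the 162 table genes there, against 0.02 elsewhere. Over the 133 of them that were kept the W-strand minus C-strand median was -0.46, and values of genes in that stretch are marked as uncertain.

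The deleted gene checked the labels. SPP1 (YPL138C, chromosome XVI, 291366 to 292427 in assembly R64, the same as sacCer3) had 69 counts in the wild type and 0 in the deletion at 15 min, with 324 and 1 counts in glucose and 131 and 0 at 60 min. Against a floor of 3 counts in the deletion library, its level was at least 29.8-fold lower. The neighbouring genes did not share the loss. UME1 had 97 counts in the wild type and 107 in the deletion, a log2 difference of -0.23 (-0.64 to 0.18), and MKK2 had 80 and 101, a difference of -0.04. On the other side GIP3 had 417 and 477, a difference of -0.18, and ISU1 had 1266 and 1715, a difference of 0.07. The a-cell genes MFA1, MFA2 and STE2 were well covered in both libraries, at 288, 626 and 556 counts in the wild type and 288, 742 and 477 in the deletion. STE3, the receptor of alpha cells, had 1 count in the wild type and 5 in the deletion. The other alpha-cell genes in the table had more, SAG1 with 19 and 28 counts and AFB1 with 15 and 12. HIS3, of which BY4741 is known to carry a partial deletion, had 62 and 111 counts; the origin of these counts was not tested.

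Across the genome the differences at 15 min were mostly small. At least 2-fold higher levels in the deletion were found for 64 genes (1.27% of those kept) and at least 2-fold lower levels for 28 (0.554%). The counting interval lay wholly above 0 for 625 genes (12.4%) and wholly below 0 for 621 (12.3%). These shares are the background for the interval counts of the gene lists below. They rose with depth across 5 equal bins of mean count. From the lowest bin to the highest, the share above 0 went from 6.93% to 24.6% and the share below 0 from 5.45% to 19.3%. It lay wholly past 2-fold for 15 genes on the higher side (0.297%) and for 3 on the lower side (0.0594%). Of these 15, 8 encode enzymes or partners of ergosterol synthesis, and ATF2, CYB5 and YEH1 act on sterols around that pathway. The last gene inside the 2-fold limit on the higher side had a difference of 1.004 and the first outside one of 0.993. On the lower side these values were -1.021 and -0.998.

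**Figure D1:**
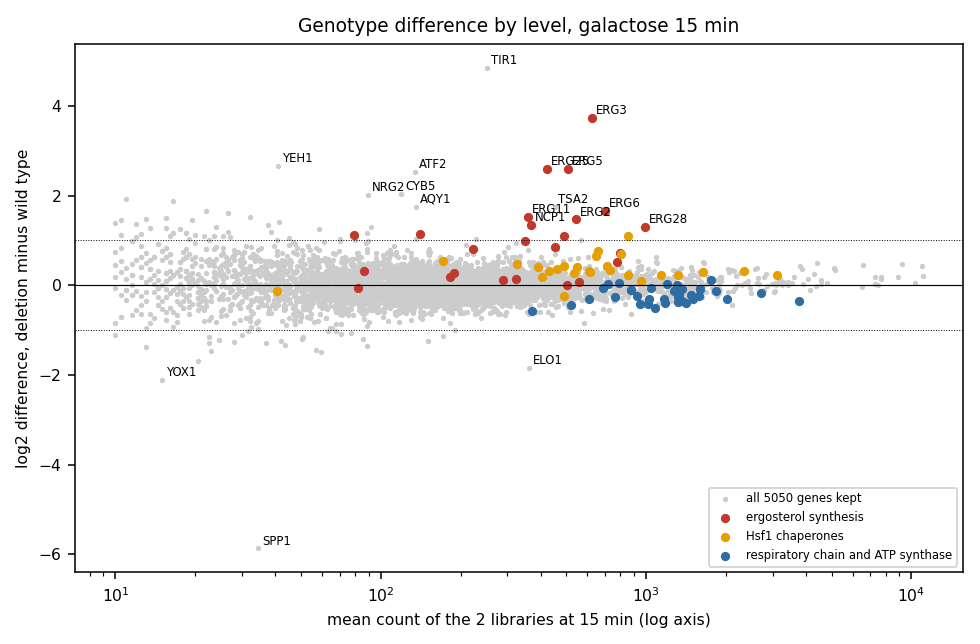
Log2 difference between the SPP1 deletion and the wild type at 15 min (vertical axis) against the mean count of the 2 libraries (horizontal log axis), 1 point per gene for the 5050 genes kept; dotted lines mark 2-fold, and genes with the whole counting interval past 2-fold are named. Ergosterol genes (red) reach 3.74, Hsf1 chaperones (orange) lie mostly a little above 0 and respiratory genes (blue) mostly a little below, and SPP1 is drawn at its fitted value with 0 counts in the deletion.

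Many of the genes past 2-fold were thinly covered. Of the 64 higher genes, 37 had fewer than 20 counts in the wild-type library and 27 had 20 or more. The median mean count of the 2 libraries was 34.8 for the higher genes and 42.8 for the lower ones, against 160.0 for all genes kept. Of the 37 thinly covered higher genes, 20 stood at least 8-fold lower in the wild type at 15 min than in glucose. The low wild-type count that defines these genes also enters that fall, so the 20 are a description only. The stretch of chromosome XI with the strand shift held 5 of the higher and 3 of the lower genes. No gene of either list with coordinates in the reference shared its span with another annotated gene; YLR286W-A, YBL083C and YMR316C-B have none there and were not checked.

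The cell-wall gene TIR1 and the sterol desaturase gene ERG3 had the largest differences. TIR1 (YER011W, chromosome V, 175248 to 176012) encodes a serine- and alanine-rich mannoprotein of the wall, known for its induction by cold and low oxygen. It had 12 counts in the wild type and 491 in the deletion at 15 min, 94 and 3892 in glucose, and 9 and 122 at 60 min. The deletion was thus the higher strain in all 3 conditions, by 4.85 (4.16 to 5.94) at 15 min, 4.67 in glucose and 3.90 at 60 min on the log2 scale.

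ERG3 (YLR056W, chromosome XII, 253861 to 254958), the C-5 sterol desaturase, had 67 counts in the wild type and 1179 in the deletion at 15 min. Its counts were 1607 and 13045 in glucose and 660 and 1407 at 60 min. The difference at 15 min was 3.74 (3.41 to 4.14), or 13.4-fold, against 2.35 in glucose and 1.44 at 60 min. The wild-type level was lower at 15 min than in glucose by a log2 difference of -3.49, and the deletion level by -2.10.

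ERG5 (YMR015C, chromosome XIII, 300869 to 302485), the C-22 sterol desaturase, had 114 counts in the wild type and 902 in the deletion at 15 min. In glucose it had 1020 and 3673 counts, and at 60 min 658 and 707. The difference was 2.60 (2.33 to 2.91) at 15 min, 1.18 in glucose and 0.45 at 60 min. The wild type stood at -2.08 and the deletion at -0.66 relative to glucose, so that the strains were furthest apart at 15 min and close by 60 min. ERG25, the C-4 methyl oxidase, had 95 and 752 counts at 15 min, a difference of 2.60 (2.30 to 2.94), with 2.20 in glucose and 1.75 at 60 min.

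Whether a difference at 15 min departs from that of the other conditions was tested in the only fit the design allows. The 15 min difference was set against the one shared by glucose and 60 min, with edgeR's quasi-likelihood test over 5186 genes and Benjamini-Hochberg adjustment. ERG5 departed by 1.79 (edgeR, adjusted p = 9.26e-04), whereas the departure of ERG3 was 1.86 with an adjusted p of 0.0722 by edgeR. In all, 3 genes departed upward (0.0578%) and 4 downward (0.0771%). The fit has 1 residual degree of freedom, and DESeq2 made no call, with 22 genes at an unadjusted p under 0.05, against 277 by edgeR.

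**Figure D2:**
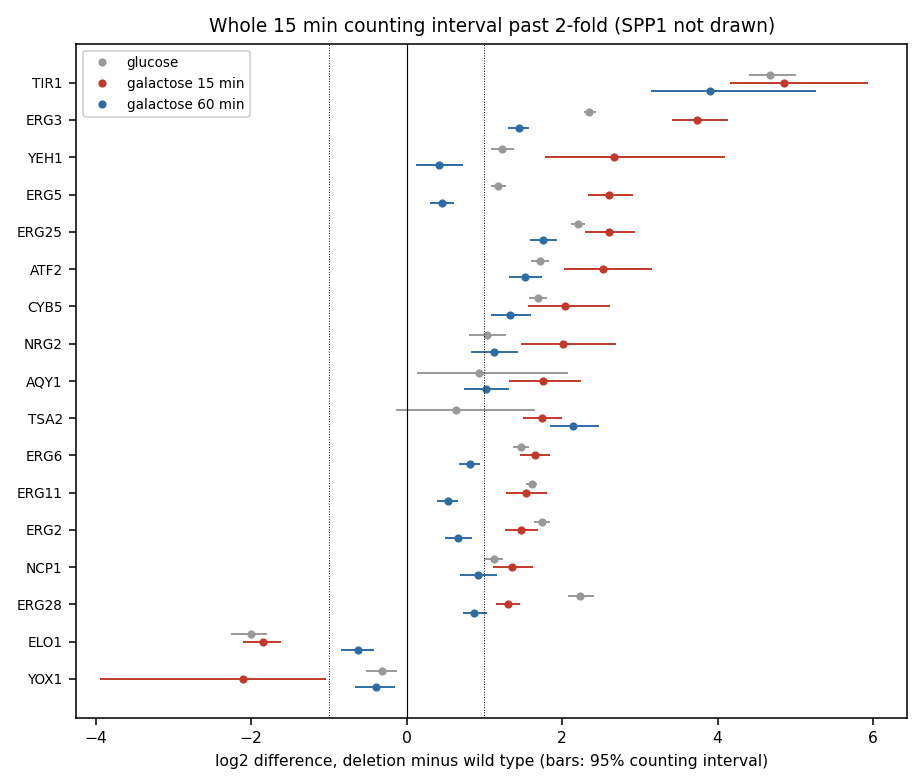
Log2 difference, deletion minus wild type, for the 17 genes other than SPP1 whose whole counting interval at 15 min lies past 2-fold, in glucose (grey), at 15 min (red) and at 60 min (blue); bars are 95% counting intervals. TIR1 is far to the right in each condition, and ELO1 and YOX1 are the 2 genes to the left. ERG3, YEH1 and ERG5, among others, stand further right at 15 min than in glucose or at 60 min.

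Taken along the pathway, the ergosterol genes were higher in the deletion mostly in its late steps. All 24 listed genes found in the table passed the count filter. Of them 11 were at least 2-fold higher, none was 2-fold lower, 16 had intervals above 0 and none below, and the median difference was 0.93, against 0.00 for all genes. The medians of the same genes were 1.07 in glucose and 0.46 at 60 min. These genes were listed with a higher level in the deletion already known from the same libraries, so their direction is a description only.

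Among the 8 measured genes that lead from acetyl-CoA to farnesyl diphosphate, only MVD1, mevalonate diphosphate decarboxylase, was past 2-fold. It had 72 and 208 counts and a difference of 1.14 (0.76 to 1.57). ERG10, acetoacetyl-CoA thiolase, stood at 0.52 (0.36 to 0.67). The HMG-CoA reductase genes HMG1 and HMG2 stood at 0.28 and 0.12, ERG12 and ERG8, the mevalonate and phosphomevalonate kinases, at 0.19 and 0.07, ERG20 at 0.01 and IDI1 at -0.05, and each of these 6 had an interval that included 0. The measured genes of the early branch were thus close to the wild-type level apart from MVD1 and ERG10.

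The squalene steps lay between. ERG9, squalene synthase, had 511 and 1086 counts, a difference of 0.71 (0.56 to 0.87). ERG1, squalene epoxidase, had 258 and 722, a difference of 1.11 (0.90 to 1.32), and ERG7, lanosterol synthase, 41 and 117, a difference of 1.12 (0.62 to 1.69). In glucose the difference of ERG1 was 1.95.

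Of the 13 genes acting from lanosterol onward, 8 were past 2-fold with their whole interval. Besides ERG3, ERG5 and ERG25 these were ERG6, the C-24 methyltransferase, at 276 and 1124 counts and 1.65 (1.46 to 1.85), and ERG11, the lanosterol demethylase, at 150 and 565 counts and 1.53 (1.28 to 1.81). ERG2, the C-8 isomerase, had 236 and 848 counts and stood at 1.47 (1.26 to 1.69). NCP1, the reductase that passes electrons to Erg11, had 170 and 565 counts and stood at 1.35 (1.11 to 1.62), and ERG28, which tethers the enzymes of C-4 demethylation to each other, had 470 and 1503 and stood at 1.30 (1.15 to 1.46). The other 5 were ERG24 at 0.99, ERG4 at 0.86, ERG26 at 0.80, ERG29 at 0.32 and ERG27 at 0.14, of which ERG29 and ERG27 had intervals that included 0. The wild-type level of ERG28 was higher at 15 min than in glucose, by 1.59, with 327 counts in glucose and 470 at 15 min.

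**Figure D3:**
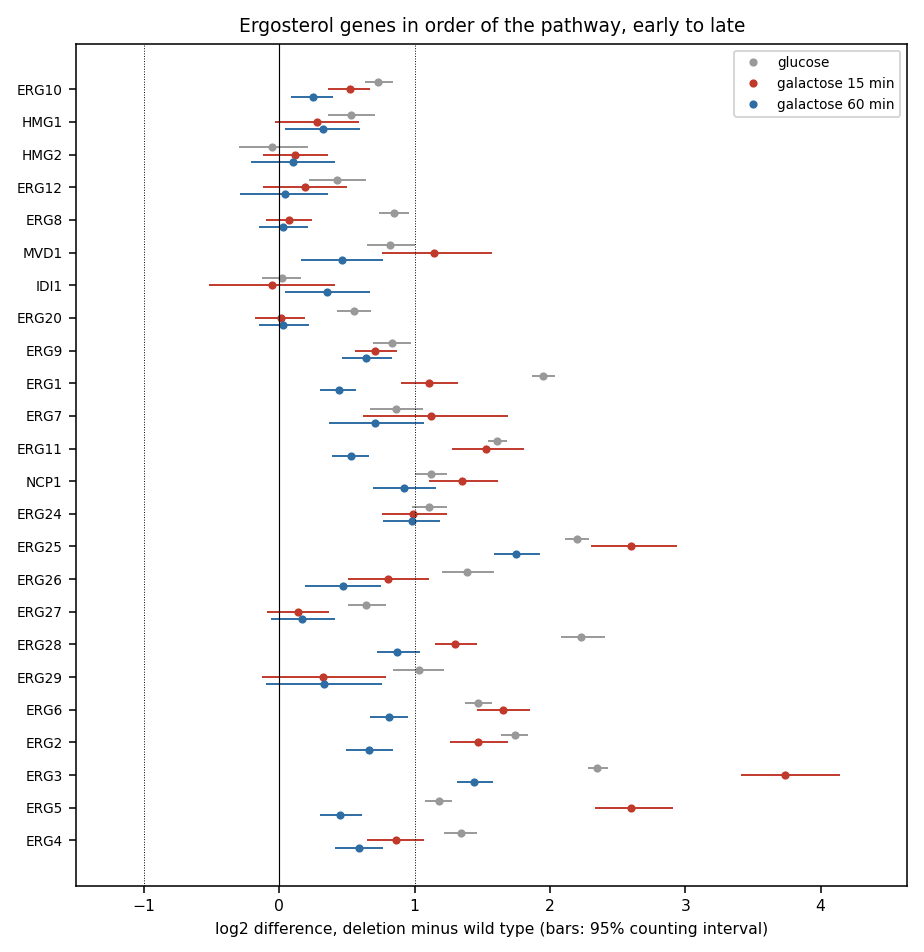
Log2 difference, deletion minus wild type, of the 24 ergosterol genes in the order of the pathway from top to bottom, in glucose (grey), at 15 min (red) and at 60 min (blue), with 95% counting intervals. The genes up to ERG20 lie near 0 at 15 min except ERG10 and MVD1, and ERG3 stands furthest right at 3.74.

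Genes that regulate, store or modify sterols were also higher in part. Of 13 measured, 4 were at least 2-fold higher, 9 had intervals above 0 and 2 below, and the median was 0.39, with -0.09 in glucose and 0.36 at 60 min. ATF2, an acetyltransferase that acts on sterols, had 31 and 239 counts at 15 min, a difference of 2.53 (2.03 to 3.16), and CYB5, the cytochrome that donates electrons to sterol and lipid enzymes, had 37 and 202, a difference of 2.04 (1.56 to 2.62). UPC2, the sterol-responsive activator, had 28 and 89 counts and a difference of 1.26 (0.67 to 1.96), whereas its paralog ECM22 had 99 and 155 and a difference of 0.27 with an interval that included 0. DAP1, a haem-binding partner of Erg11, had 125 and 333 counts and a difference of 1.03 (0.74 to 1.35).

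The sterol acyltransferase genes ARE1 and ARE2 stood at 0.74 and 0.39, and ARE1 shares part of its span with another gene. The repressor genes of hypoxic transcription ROX1 and MOT3 stood at 0.27 and 0.45, and SUT1, a regulator of sterol uptake, at 0.29. SAY1, a sterol deacetylase, at -0.52 and OSH2, an oxysterol-binding protein, at -0.31 were the members with intervals below 0, and SUT2 at -0.31 had an interval that included 0. YEH1, a steryl ester hydrolase that is in none of these lists, had 8 counts in the wild type and 74 in the deletion, a difference of 2.67 (1.78 to 4.10). Its counts were 487 and 1816 in glucose and 176 and 185 at 60 min, and its departure of 1.92 had an adjusted p of 0.0722 by edgeR.

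The remaining genes with the whole interval past 2-fold on the higher side were unrelated to sterols by annotation. NRG2, a repressor that acts in glucose repression, had 28 and 151 counts, a difference of 2.01 (1.47 to 2.70). TSA2, a cytoplasmic peroxiredoxin, had 169 and 735, a difference of 1.74 (1.5 to 2.0), and AQY1, a water channel of the plasma membrane, 50 and 221, a difference of 1.75 (1.32 to 2.24). At 60 min the differences of NRG2, AQY1 and TSA2 were 1.12, 1.02 and 2.14, and in glucose 1.03, 0.93 and 0.64.

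On the lower side, ELO1 was the most deeply covered gene past 2-fold. ELO1 (YJL196C, chromosome X, 67850 to 68782), which elongates medium-chain fatty acids, had 534 counts in the wild type and 191 in the deletion at 15 min. Its counts were 545 and 213 in glucose and 566 and 287 at 60 min. The differences were -1.85 (-2.10 to -1.62), -2.0 and -0.63, with the deletion the lower strain each time. YOX1, a repressor of genes expressed at the M/G1 boundary, had 24 and 6 counts at 15 min and a difference of -2.11 (-3.95 to -1.04), against -0.32 in glucose and -0.40 at 60 min. Its departure of -1.99 did not pass the test (edgeR, adjusted p = 0.278).

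Fatty acid genes went both ways. Of 16 measured, ELO1 among them, 2 were at least 2-fold lower, 4 had intervals above 0 and 3 below, and the median was 0.09. FAA3, an acyl-CoA synthetase, had 78 and 49 counts and stood at -1.02 (-1.59 to -0.51), and ELO2, a second elongase, had 59 and 46 and stood at -0.71 (-1.32 to -0.15). FAS2, the alpha subunit of fatty acid synthase, had 207 and 420 counts and stood at 0.64 (0.40 to 0.90). The list as a whole did not stand to one side.

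The 19 measured wall mannoproteins, TIR1 among them, showed no common direction, with 6 intervals above 0, 4 below and a median of 0.06. TIR3, a relative of TIR1, had 17 and 58 counts and a difference of 1.34 (0.60 to 2.27), with 2.84 in glucose and 1.14 at 60 min. TIR2 at 0.08 and TIR4 at 0.23 had intervals that included 0, so the family was not uniformly higher. HPF1 had 43 and 91 counts and stood at 0.69 (0.17 to 1.27), and CCW12, the most abundant of the list by count, stood at 0.19 (0.14 to 0.24). HSP150 at 0.18 and SPI1 at 0.21 also had intervals above 0. TIP1, with 253 and 214 counts, stood at -0.61 (-0.88 to -0.35), and YGP1 at -0.28 (-0.47 to -0.09). CWP2 at -1.29 lies in the uncertain stretch of chromosome XI, as does CWP1 at -0.82. PIR3 stood at -0.56, PIR1 at -0.11, PST1 at -0.03, CIS3 at 0.01, SED1 at 0.06 and CCW14 at 0.12, each with an interval that included 0.

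Pheromone-response genes were lower in the deletion for a few members only. Of 15 measured, 2 were at least 2-fold lower, 4 had intervals below 0 and 1 above, and the median was -0.08, against -0.46 in glucose and -0.58 at 60 min. SST2, the protein that switches off the pheromone G protein, had 118 counts in the wild type and 59 in the deletion at 15 min, 764 and 641 in glucose, and 188 and 50 at 60 min. Its difference was -1.35 (-1.85 to -0.91), and that of AGA1, the anchor subunit of a-agglutinin, was -1.25 (-2.0 to -0.62) from 55 and 29 counts. Both were lower in the deletion in every condition.

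STE2, the alpha-factor receptor, stood at -0.59 (-0.77 to -0.41) and MFA1, an a-factor gene, at -0.37 (-0.61 to -0.13). PRM4 was the member with an interval above 0, at 0.80 (0.60 to 1.01) from 283 and 640 counts. KAR4 stood at -0.47, AGA2 at -0.21, MFA2 at -0.13, PRM8 at -0.08, GPA1 at 0.01, FIG2 at 0.18, MSG5 at 0.25, STE12, the transcription factor of the pathway, at 0.31, PRM5 at 0.31 and PRM10 at 0.57, each with an interval that included 0. PRM10 shares part of its span with another gene.

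The Gal4 targets, which include the genes of galactose use, showed no common difference at 15 min. Of 8 kept Gal4 targets, none was past 2-fold, 2 had intervals above 0 and none below, and the median was -0.12. GAL7, the uridylyltransferase, had 52 and 45 counts and stood at -0.57 (-1.19 to 0.02), and GAL1, galactokinase, had 17 and 19 and stood at -0.20 (-1.24 to 0.82), with part of its span shared with another gene. GAL3, the galactose sensor, stood at -0.14 from 40 and 47 counts, and GAL80, the inhibitor of Gal4, at -0.11 from 149 and 179. The intervals of these 4 genes included 0, so no difference was detectable in them at this depth. Relative to glucose, GAL7, GAL1, GAL3 and GAL80 stood at 1.92, 0.48, 2.48 and 0.02 in the wild type at 15 min. In the deletion they stood at 1.66, 0.97, 2.16 and 0.31.

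GAL2, the galactose transporter, had 23 and 56 counts and stood at 0.88 (0.19 to 1.68), and MTH1, a negative regulator of glucose sensing, had 436 and 739 and stood at 0.39 (0.22 to 0.56). PCL10 stood at -0.19 and GCY1 at 0.04, with intervals that included 0. FUR4, with 3 and 9 counts, did not pass the count filter. Hexose transporter and sensor genes had 5 of 7 kept intervals above 0 and none below. Their median was 0.51, against 0.09 in glucose and 0.58 at 60 min. The glucose sensor genes SNF3 and RGT2 stood at -0.19 and -0.04, with intervals that included 0. HXT3 had 402 and 806 counts and stood at 0.63 (0.46 to 0.81), HXT1 had 52 and 100 and stood at 0.56 (0.07 to 1.08), and HXT2 had 1154 and 2122 and stood at 0.51 (0.40 to 0.61). STD1, a paralog of MTH1, had 50 and 126 counts and stood at 0.94 (0.48 to 1.46), with a departure of 1.26 and an adjusted p of 0.0722 by edgeR. HXT7 was listed at 0 in all 6 libraries.

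Chaperone genes controlled by Hsf1, the heat-shock transcription factor, were slightly higher in the deletion almost throughout. Of 26 measured, 22 had intervals above 0 and 1 below, and 1 was past 2-fold. The median was 0.33, against -0.06 in glucose and 0.07 at 60 min. HSP26, a small heat-shock protein, had 456 counts in the wild type and 1257 in the deletion at 15 min, 24 and 39 in glucose, and 330 and 554 at 60 min, and its difference at 15 min was 1.09 (0.93 to 1.25).

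BTN2, which collects misfolded proteins, had 411 and 907 counts at 15 min, 190 and 176 in glucose, and 72 and 59 at 60 min. Its difference was 0.77 (0.60 to 0.94) at 15 min, and it departed from the other conditions by 1.25 (edgeR, adjusted p = 7.59e-04). The Hsp70 genes SSA2 and SSA4 stood at 0.70 (0.55 to 0.86) and 0.65 (0.48 to 0.82), from 519 and 1096 and from 428 and 871 counts. Members named after their values were seen were YDJ1, an Hsp40, at 0.55, HSP82, an Hsp90, at 0.41, and SSE2, the member with an interval below 0, at -0.23. Targets of Msn2 and Msn4, the general stress activators, did not share this shift as a set. Of 21 measured, 6 had intervals above 0 and 7 below, with a median of 0.02. Their highest difference was 1.09, the value given above for HSP26, and 1 of them was at least 2-fold higher. CTT1, the cytosolic catalase, had 486 and 398 counts and stood at -0.66 (-0.86 to -0.47), ALD3 stood at -0.61 (-1.39 to 0.10) and RTN2 at -0.34 (-0.45 to -0.23).

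Oxidative defence genes included the NADPH oxidoreductases OYE3, at 43 and 140 counts and 1.31 (0.83 to 1.86), and OYE2, at 221 and 497 counts and 0.79 (0.56 to 1.03). Of 26 measured, 9 had intervals above 0 and 3 below, with a median of 0.08. The difference of OYE3 was of opposite sign in glucose, at -0.87.

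Genes of the respiratory chain and ATP synthase were slightly lower in the deletion. None of the 37 measured was past 2-fold, but 24 had intervals below 0 and 1 above. All kept genes had 12.3% below and 12.4% above. The median was -0.23, against -0.05 in glucose and 0.16 at 60 min. In glucose 11 of the 37 intervals lay below 0 and 1 above, where all kept genes had 15.8% below and 17.6% above. At 60 min 28 of the 37 intervals lay above 0 and 1 below, where all kept genes had 14.8% above and 14.1% below. CYC1, iso-1-cytochrome c, had 395 and 345 counts, a difference of -0.57 (-0.78 to -0.36), and TIM11, a subunit of ATP synthase, had 1128 and 1028, a difference of -0.51 (-0.63 to -0.38). NDE1, the external NADH dehydrogenase, stood at -0.43 (-0.61 to -0.25) and COX6, a subunit of cytochrome c oxidase, at -0.42 (-0.55 to -0.29). In glucose the differences of CYC1, TIM11, NDE1 and COX6 were -1.01, 0.14, -1.28 and -0.33. At 60 min they were -0.39, 0.13, 0.01 and 0.30, so CYC1 and NDE1 were furthest below the wild type in glucose.

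The tricarboxylic acid cycle genes had 7 of 19 intervals below 0, 3 above and a median of -0.11. IDH2 and IDH1, the subunits of isocitrate dehydrogenase, stood at -0.43 (-0.56 to -0.31) and -0.42 (-0.61 to -0.22), and KGD2 at -0.35 (-0.50 to -0.20). Genes of the mitochondrial ribosome were near 0, with 2 of 63 intervals above 0, 5 below and a median of -0.02.

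The iron regulon, the set of uptake genes driven by Aft1 and Aft2, was lower in the deletion at 15 min in 13 of 23 intervals, with 1 above 0 and a median of -0.22. In glucose its median was 0.18 and 12 of the 23 intervals lay above 0, where 17.6% of all kept genes lay above 0 and 15.8% below. At 60 min its median was 0.09 with 5 intervals above 0 and 2 below, where all kept genes had 14.8% above and 14.1% below. TIS11, which destabilises mRNAs of iron-using proteins, had 290 counts in the wild type and 250 in the deletion at 15 min, 138 and 518 in glucose, and 141 and 153 at 60 min. The deletion was the lower strain at 15 min, at -0.58 (-0.84 to -0.34), and the higher strain at 1.22 in glucose and 0.46 at 60 min. Its departure of -1.48 passed the test (edgeR, adjusted p = 3.59e-05).

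ARN2, a siderophore transporter, had 98 and 75 counts and stood at -0.75 (-1.21 to -0.31), FET3, the multicopper ferroxidase, had 962 and 800 and stood at -0.64 (-0.78 to -0.50), and FRE3, a ferric reductase, had 94 and 79 and stood at -0.61 (-1.07 to -0.18). CCC2, a copper transporter that loads Fet3, was named after its values were seen and stood at -0.58 (-0.83 to -0.34). FIT3, a mannoprotein that retains siderophores, was the member with an interval above 0, at 0.26 (0.03 to 0.49).

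Genes for making ribosomes had few counts in both strains at 15 min. Of 87 ribosome biogenesis genes in the table, 61 passed the count filter. Among those 61 passing, 4 were at least 2-fold higher, 6 had intervals above 0, none lay below, and the median was 0.15, against 0.01 for members with a mean count of at least 50. PWP2, a subunit of the small-subunit processome, had 8 and 36 counts at 15 min and 893 and 1303 in glucose, and its level relative to glucose was -5.53 in the wild type and -3.75 in the deletion on the log2 scale. Its difference between the strains at 15 min was 1.66 (0.67 to 3.11). IMP3 had 5 and 19 counts and stood at 1.36 (0.08 to 3.33), RLP7 had 13 and 38 and stood at 1.11 (0.23 to 2.21), and NOP16 had 22 and 59 and stood at 1.01 (0.32 to 1.83). These values rest on small wild-type counts, and the departure of PWP2, at 2.00, had an adjusted p of 0.0722 by edgeR. PWP2 and IMP3 passed the count filter only through the deletion library. With wild-type counts that low, the filter keeps a gene only if its deletion count is higher. The tally of higher members therefore depends in part on the filter.

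Of 17 kept subunit genes of RNA polymerases I and III, 2 had intervals above 0 and none below, and the median was 0.22. Of all kept genes, 12.4% had intervals above 0 and 12.3% below. RET1, the second largest subunit of polymerase III, had 26 and 67 counts and stood at 0.96 (0.32 to 1.71), and RPO31, its largest subunit, had 54 and 101 and stood at 0.52 (0.04 to 1.03). RPC25 at 0.99, from 6 and 17 counts, and RPA34 at 0.74, from 6 and 14, had intervals that included 0. Both passed the count filter only through the deletion library, so the same limit applies to them. Cytosolic ribosomal protein genes had more intervals below 0 than above, 42 against 22 of 135, with a median of -0.13. In glucose 44 lay below and 37 above, with a median of -0.02. At 60 min 111 lay below and 2 above, with a median of -0.40, where all kept genes had 14.1% below and 14.8% above. RPL24A stood at 0.79 (0.41 to 1.21) and RPL1A at 0.75 (0.11 to 1.46), while RPL13B stood at -0.64 (-0.92 to -0.37) and RPL43A at -0.63 (-0.88 to -0.39). Many of these genes have near-identical copies, and how the authors assigned shared reads is not given in the sources used here.

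**Figure D4:**
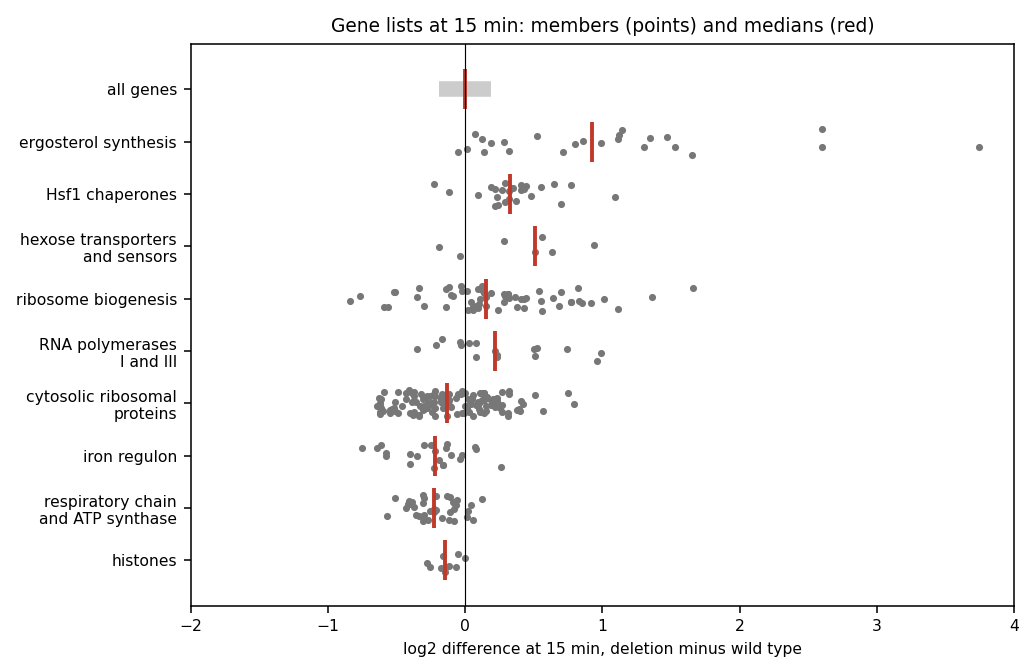
Log2 difference at 15 min, deletion minus wild type (horizontal axis), for the members of 9 gene lists that passed the count filter, 1 grey point per gene, with each list's median as a red bar; the grey box of all genes spans the middle 50% of the genes kept. Medians run from 0.93 for ergosterol synthesis to -0.23 for the respiratory chain.

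Among the COMPASS subunit genes and the listed partners of H3K4 methylation, SPP1 and UBP10 were the members past 2-fold. The other 6 measured COMPASS subunit genes had intervals that included 0. SET1, the methyltransferase, had 23 and 39 counts and stood at 0.37, BRE2 had 24 and 47 and stood at 0.57, and SDC1, SWD1, SWD3 and SHG1 stood at -0.38, -0.23, -0.22 and -0.07. Among 26 measured partners of H3K4 methylation, UBP10, a histone H2B deubiquitinase, was past 2-fold, at 19 and 58 counts and 1.19 (0.47 to 2.07), and the median was 0.08. DOT1, the H3K79 methyltransferase, stood at 0.46 (-0.07 to 1.03), YNG1, a PHD-finger subunit of the NuA3 acetyltransferase, at -0.34 (-0.68 to -0.01) and HOS4, a subunit of the Set3 deacetylase complex, at 0.30 (-0.05 to 0.66). Of 10 histone genes, 5 had intervals below 0 and none above, with a median of -0.15. HTB2, encoding H2B, stood at -0.28 (-0.40 to -0.15), HTA2, encoding H2A, at -0.26 (-0.36 to -0.16), HHT1, encoding H3, at -0.18 and HHF2, encoding H4, at -0.16.

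Of 17 kept G1/S genes, 1 had an interval above 0, 3 below, and the median was -0.12. PCL1, a cyclin of the Pho85 kinase, had 96 and 59 counts and stood at -1.06 (-1.57 to -0.59), and PCL2, another, had 43 and 96 and stood at 0.77 (0.25 to 1.34). CLN2, a G1 cyclin, had 19 and 15 counts, with an interval that included 0. PHO89, a sodium-phosphate cotransporter, had 316 and 822 counts and stood at 1.00 (0.82 to 1.20) at 15 min, against 2.25 in glucose and 0.07 at 60 min.

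Among methionine and sulfur genes, 6 of 22 intervals lay above 0 and none below, with a median of 0.20. MET2, homoserine acetyltransferase, had 31 and 75 counts and stood at 0.88 (0.28 to 1.56), and MET6, methionine synthase, had 73 and 156 and stood at 0.71 (0.31 to 1.14). MET8 at -0.92 and MET32 at -0.67 had intervals that included 0. Among sphingolipid genes and Pdr1 targets, RSB1, a sphingoid base transporter, stood at -0.59 (-0.85 to -0.35) and YPC1, a ceramidase, at -0.52 (-0.68 to -0.37), whereas PDR5, a drug efflux pump, stood at 0.45 (0.25 to 0.67). Proteasome genes, with 6 of 33 intervals above 0 and 2 below, had a median of 0.05.

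The genes past 2-fold at 15 min overlapped in part with those of the other conditions, which share no library with this comparison. Of the 64 higher genes, 20 were also at least 2-fold higher in glucose (31.2% of the 64 and 46.5% of the 43 higher there) and 13 at 60 min (20.3% of the 64 and 26.5% of the 49 higher there). In all, 9 were higher in both and 40 in neither. Of the 28 lower genes, 4 were also at least 2-fold lower in glucose (14.3% of the 28 and 22.2% of 18), 7 at 60 min (25.0% of the 28 and 35.0% of 20), and 19 in neither. For comparison, 0.851% of all kept genes were 2-fold higher and 0.356% 2-fold lower in glucose, and 0.97% and 0.396% at 60 min. The 64 higher genes had median differences of 0.19 in glucose and 0.35 at 60 min, and 31 of them lay within 0.5 of 0 in both. Being past 2-fold in 1 condition alone is not a test of a difference between conditions.

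The 15 min difference also varied with how a gene responded to galactose later. Genes were ranked by the mean change of both strains from glucose to 60 min, which uses no 15 min library, and divided into 5 equal bins of 1010 genes. The median difference at 15 min was 0.115 in the bin that was lowest at 60 min relative to glucose, then 0.017, -0.025 and -0.042, and -0.045 in the bin that was highest. In glucose the first bin had a median difference of 0.009 and the last of 0.027. At 60 min the medians ran the other way, at -0.125, -0.056, -0.018, 0.02 and 0.128, but the glucose and 60 min libraries also set the order of the genes, so these medians are given as a description only. Intervals above 0 made up 16.5% of the first bin and 15.1% of the last, and intervals below 0 made up 7.62% and 24.3%. The first bin held 39 of the 64 genes that were 2-fold higher, and had a median count of 71.8 against 355.0 in the last. Among genes with a mean count of at least 100 the medians ran from 0.049 in the first bin to -0.044 in the last.

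**Figure D5:**
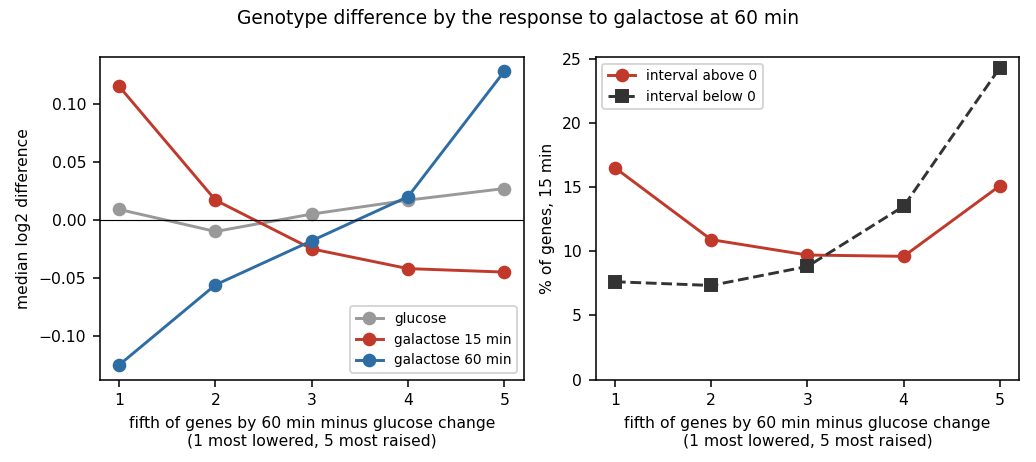
Left, median log2 difference, deletion minus wild type, in bins of 1010 genes ordered by their change from glucose to 60 min, in glucose (grey), at 15 min (red) and at 60 min (blue), where the glucose and 60 min libraries also set the order; right, percentage of each bin with a 15 min counting interval above 0 (red) or below 0 (black dashed). The 15 min median goes from 0.115 in the first bin to -0.045 in the last, the 60 min median from -0.125 to 0.128, and the share below 0 from 7.62% to 24.3%.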

How the data were processed

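The deposited table gives whole-number read counts per gene for 6 NET-seq libraries, made by the authors; per the submitters' processing notes, reads were aligned with Bowtie to sacCer3. Which tool counted the reads, with what strand setting, gene windows, annotation and treatment of shared reads, is not given in the sources used here. The table holds 5219 genes, of which 5116 identifiers matched the R64 reference table and 103 did not, and 3 of its lines were emptied. GAL10 is not reported here. The columns labelled as time 0 were taken as the glucose samples.

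Counts were used as deposited. TMM factors over all 6 libraries were 0.961 (wild type) and 0.940 (deletion) at 15 min, and log2 CPM used a prior count of 2. Genes with a mean count of 10 over the 2 libraries compared were kept. Counting intervals are exact 95% binomial intervals on the 2 counts (scipy 1.17.1, Python 3.11.15), with a floor of 3 counts. The departure at 15 min was tested with edgeR 4.0.16 (limma 3.58.1, R 4.3.3) over all 6 libraries with condition as a covariate and a mean count of 10 over them, at an adjusted p of 0.05. It leaves 1 residual degree of freedom, from the disagreement of glucose and 60 min. Its common dispersion was 0.0107 and the prior degrees of freedom were infinite, so no gene had a spread of its own. Since nothing says that the libraries came from separate cultures, these p-values measure only the spread between these samples, which may be technical.

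Both procedures were tested on simulated data with known answers. The departure test recovered 36% of 100 changes of 2-fold and 85% of 100 changes of 3-fold. It also called 5 genes that had not been changed. The counting interval covered the true value for 95.5% of 5050 genes, and lay clear of 0 for 4.47% of the unchanged ones. As the interval covers counting error only, the 4.47% does not measure how often it would lie clear of 0 between separate cultures.

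The members and the 42 gene lists were chosen with earlier results of these data known. Named genes were SPP1 and its nearest neighbours, up to 20 genes each way with the whole interval past 2-fold, every member of the ergosterol, sterol regulator, mannoprotein, mating, COMPASS and Gal4 lists, up to 4 members with the largest absolute difference of the other lists described, and the 10 highest and 10 lowest departures. CCC2, FIT3, YDJ1, HSP82, SSE2 and HXT7 were chosen after their values were seen. Alternatives were the prior count, filter, scaling, threshold, limma with trend and DESeq2 1.42.0. Chosen after seeing the data were a fit that leaves out the uncertain stretch of chromosome XI and list medians at a mean count of 100. Matplotlib 3.10.9 drew the figures.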

Additional observations from a re-analysis of the deposited data

Results flagged for a closer look

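For 7 genes the difference between the strains at 15 min differed from the one shared by glucose and 60 min, by the departure test in edgeR with Benjamini-Hochberg adjustment over 5186 genes. Upward departures were found for ERG5 (1.79 on the log2 scale, adjusted p = 9.26e-04), BTN2 (1.25, adjusted p = 7.59e-04) and YGR035C (1.22, adjusted p = 7.59e-04). YGR035C, an open reading frame for which no role is given here, had 184 counts in the wild type and 460 in the deletion at 15 min, 543 and 688 in glucose, and 215 and 149 at 60 min.

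Downward departures were found for UPS2 (-1.26, edgeR adjusted p = 5.94e-03), SPG1 (-1.41, edgeR adjusted p = 7.59e-04), TIS11 (-1.48, edgeR adjusted p = 3.59e-05) and YSR3 (-3.42, edgeR adjusted p = 3.77e-03). UPS2, a mitochondrial phospholipid transfer protein, had 196 counts in the wild type and 106 in the deletion at 15 min, 183 and 269 in glucose, and 240 and 203 at 60 min. SPG1 had 255 and 244 counts at 15 min, 12 and 41 in glucose, and 230 and 350 at 60 min. YSR3, a sphingoid base phosphatase, had 14 and 17 counts at 15 min, 24 and 481 in glucose, and 6 and 15 at 60 min. Its difference was -0.09 at 15 min, 3.52 in glucose and 1.46 (0.22 to 3.32) at 60 min. It lies in the uncertain stretch of chromosome XI. The 7 genes were also among the 38 called by limma, and none was called by DESeq2.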

How the results depend on the processing

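The count of genes at least 2-fold higher, 64, was 35 with a prior count of 10, 26 with a mean count of 50, 15 when the whole interval had to lie past 2-fold and 220 at 1.5-fold. The count of genes at least 2-fold lower, 28, was 13 with a mean count of 50, 3 for the whole interval and 157 at 1.5-fold. The count of departures, 7, was 38 with limma and 0 with DESeq2 (22 at an unadjusted p under 0.05); the cause was not tested. It was 7 with RLE factors, 10 with library totals and 6 without the uncertain part of chromosome XI. Reported values near 0 changed sign with library totals: ERG20, GPA1 and CIS3, each 0.01, became -0.03, -0.02 and -0.02, and the median of the Msn2/4 targets went from 0.02 to -0.01. The median of the Gal4 targets, -0.12, was 0.04 over members with a mean count of 100. No paired analysis was possible because each strain and condition has 1 library and the labels carry no replicate numbers. Leaving out a library was likewise not possible, since the departure test then has no residual degrees of freedom. Wild-type counts under 20 limit most of the higher genes outside the sterol pathway.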

Other observations

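Some genes past 2-fold belong to no list described. INA1 had 38 counts in the wild type and 102 in the deletion at 15 min, a difference of 1.03 (0.50 to 1.63), with -0.05 in each of the other conditions. CPR2, a peptidyl-prolyl isomerase, had 216 and 126, a difference of -1.14 (-1.48 to -0.83), with -0.28 in glucose and -0.39 at 60 min. UTR2, a cell-wall glycosidase, had 110 and 61, a difference of -1.20 (-1.70 to -0.76), with -0.12 in glucose and -1.17 at 60 min. YCS4, a condensin subunit, had 30 and 11, a difference of -1.69 (-2.97 to -0.78), and its departure of -1.63 did not pass the test (edgeR, adjusted p = 0.617). These 4 genes were chosen after their values were seen.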
